A study of Mus musculus with 16 samples.

Results

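The OAS, IFIT and Mx genes described here are 10 antiviral genes of the mouse: the oligoadenylate synthetase family members Oas1a, Oas2, Oas3, Oasl1 and Oasl2, the tetratricopeptide genes Ifit1, Ifit2 and Ifit3, and the dynamin-like GTPases Mx1 and Mx2. They were taken by gene symbol from the deposited count table, where they are 10 of the 49164 identifiers that held values, and all 10 passed the filter on low counts and were among the 14633 genes tested. Their levels were followed in B16-F10, a pigmented melanoma line of wild type mice, after 24 hours with 1 of 4 antibodies. The antibodies were Mel321-31 (n = 4), Mel322-34 (n = 4), Mel321-35 (n = 3) and MGO.53 (n = 4), the last an isotype control, and the title of the series calls its antibodies decoys that block extracellular HSP70. No group without antibody was analysed here. The aim given for the series was to learn which genes and pathways rise or fall with these antibodies. Mel321-35 replicate 1 came from batch 2 and the other 14 libraries from batch 1, so it is shown apart and took no part in the tests, which left n = 2 for Mel321-35. The labels name biological replicates of 1 cell line without saying what separated them, so the p-values cover the variation among these libraries, which may be technical.

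Cells that meet foreign RNA or DNA secrete type I interferon, which binds its receptor on the same or neighbouring cells and activates the transcription factor complex ISGF3. This complex binds the interferon-stimulated response element, ISRE, in front of its target genes. OAS enzymes that bind double-stranded RNA make short oligoadenylates that set off RNA decay, IFIT proteins bind viral RNA or the translation machinery, and Mx proteins trap viral components. B16 cells respond to interferon, and the set is widely read as a gauge of interferon signalling.

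Windows around the annotated start sites were available from RefSeq (build GRCm38.p6) for 7 of the 10 genes, with Oas2, Mx1 and Mx2 named only. They were searched on both strands, overlapping matches included, for the ISRE core GAAANNGAAA, which 3.45% of 32544 distinct mouse windows of 300 bases held. Oas1a, Oas3, Ifit1 and Ifit3 held it, and the windows of Oasl1, Oasl2 and Ifit2 (for which there are 2) held no match, which says only that these letters are not in these windows. The 250 bases before the start site are printed for 5 genes, 5′ to 3′ along the gene's strand, with ISRE core matches in capitals. Oas3 and Ifit1 are shown as genes with a match that fell with Mel321-31, Oas1a as a gene with overlapping matches that did not pass the test, Oasl1 as a gene that fell with no match, and Ifit2, by its first annotated start, as the gene whose level moved least.
Oas1a, chr5:120907526-120907775, minus strand: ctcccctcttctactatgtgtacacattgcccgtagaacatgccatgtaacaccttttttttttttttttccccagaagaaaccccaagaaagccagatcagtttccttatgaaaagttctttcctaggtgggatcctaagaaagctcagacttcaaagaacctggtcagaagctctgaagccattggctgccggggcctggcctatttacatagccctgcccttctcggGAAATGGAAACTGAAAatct
Oas3, chr5:120777660-120777909, minus strand: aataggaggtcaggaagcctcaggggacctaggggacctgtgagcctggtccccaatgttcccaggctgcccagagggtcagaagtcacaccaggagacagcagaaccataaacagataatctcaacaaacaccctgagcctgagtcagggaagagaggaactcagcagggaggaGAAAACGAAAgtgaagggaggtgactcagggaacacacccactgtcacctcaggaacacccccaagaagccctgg
Oasl1, chr5:114922990-114923239, plus strand: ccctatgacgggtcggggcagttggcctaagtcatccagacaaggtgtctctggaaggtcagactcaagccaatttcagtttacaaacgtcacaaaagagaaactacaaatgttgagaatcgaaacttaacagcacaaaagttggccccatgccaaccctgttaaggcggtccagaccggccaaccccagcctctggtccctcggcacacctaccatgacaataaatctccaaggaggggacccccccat
Ifit1, chr19:34640639-34640888, plus strand: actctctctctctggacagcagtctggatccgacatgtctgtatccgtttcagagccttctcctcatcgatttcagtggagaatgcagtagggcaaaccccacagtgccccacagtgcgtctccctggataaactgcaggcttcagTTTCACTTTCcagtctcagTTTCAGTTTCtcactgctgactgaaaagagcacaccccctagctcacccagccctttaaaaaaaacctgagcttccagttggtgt
Ifit2, chr19:34550444-34550693, plus strand: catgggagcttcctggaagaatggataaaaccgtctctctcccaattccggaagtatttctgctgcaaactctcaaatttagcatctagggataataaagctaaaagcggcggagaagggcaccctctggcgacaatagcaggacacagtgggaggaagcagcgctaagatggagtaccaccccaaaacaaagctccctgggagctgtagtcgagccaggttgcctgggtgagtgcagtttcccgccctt

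In Oas1a, 2 core matches overlapped and began 20 and 14 bases before the start site. In Oas3 the match began 75 bases before it. In Ifit1 they began 104 and 85 bases before it, read on the other strand, and in Ifit3 156 and 122 bases before it. The window of the neighbouring gene Ifit1bl2 overlaps that of Ifit1 on the opposite strand and holds the same matches. A match describes the letters and was not tested as a binding site.

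Library totals ran from 19446531 counts (MGO.53 replicate 2) to 37957845 counts (Mel321-31 replicate 3). Mitochondrial genes took 1.85% to 2.47% of the counts. The summed level of 8 melanoma markers, among them the pigment genes Pmel, Dct and Tyr, lay between 29400 and 30670 CPM (counts per 1000000 counts of the library) in all 15 libraries. Among them Sox10 was called lower with Mel321-31 and Mel322-34, and Pmel with Mel322-34. The summed level of 10 immune markers was 15.9 to 21.4 CPM, most of it from Cd68, a lysosomal protein abundant in macrophages, with a batch 1 mean of 15.3 CPM, and from the lysozyme gene Lyz2 with 2.23 CPM, neither of which was called against MGO.53. The macrophage marker Adgre1 and the natural killer marker Nkg7 had 0 counts in every library, and Ptprc, found on white blood cells, had 3 counts in the 15 libraries together.

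With MGO.53, the levels per kilobase of the longest annotated transcript (GENCODE M21) put Ifit2 first at 15.1 ± 0.575 CPM per kb (SD, n = 4) and Oasl1 second at 13.3 ± 3.70 CPM per kb, which differed by less than the spread of Oasl1. Ifit1 with 5.92 ± 1.53 and Ifit3 with 5.35 ± 1.12 CPM per kb came next and did not differ beyond their spread. Oasl2, Mx2 and Oas1a formed a further step at 3.34 ± 0.894, 3.09 ± 0.641 and 2.84 ± 0.792 CPM per kb, also within their spread. The lowest were Oas3 at 1.51 ± 0.432, Mx1 at 0.913 ± 0.323 and Oas2 at 0.528 ± 0.244 CPM per kb. With Mel321-31, Ifit2 stayed at 15.3 ± 0.983 CPM per kb while Oasl1 stood at 5.33 ± 1.23 CPM per kb.

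**Figure D1:**
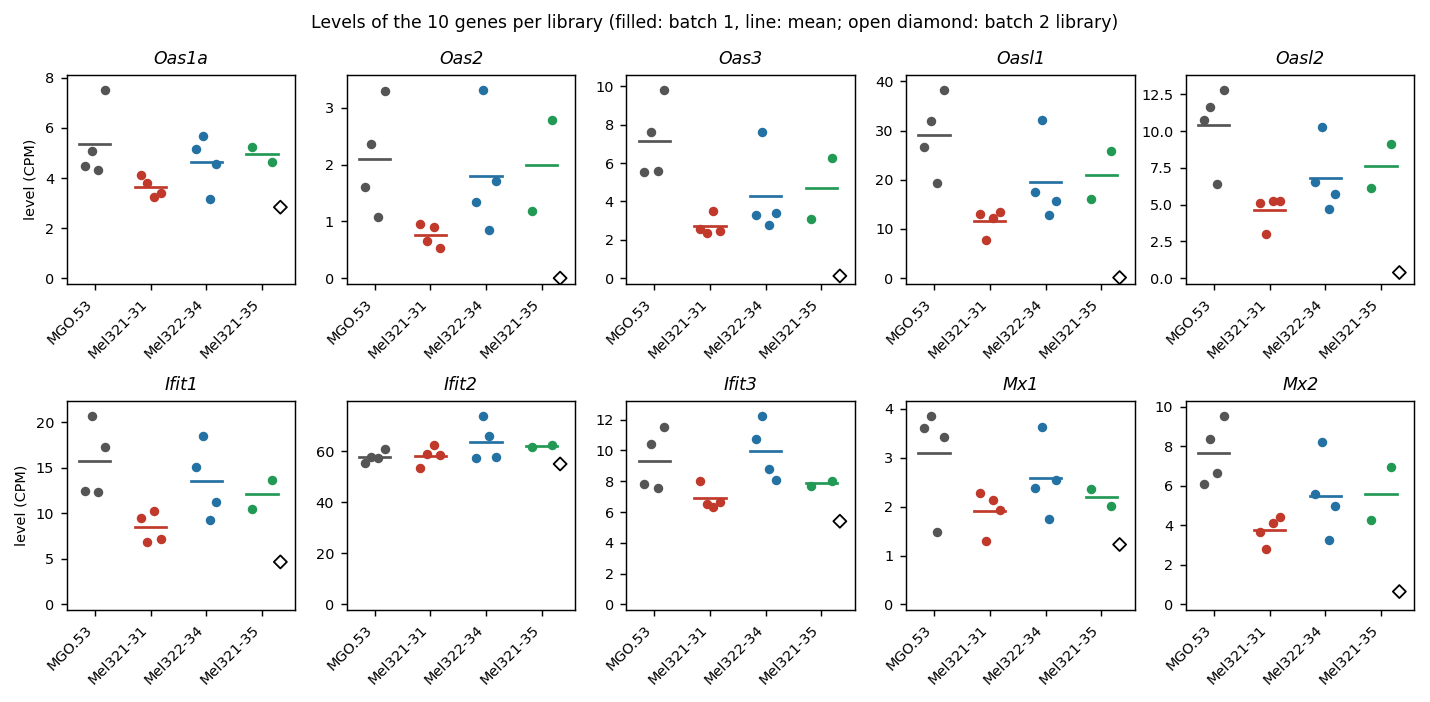
Level of each of the 10 genes (vertical axis, CPM) by antibody, with a point per batch 1 library, a line at the group mean and an open diamond for the batch 2 library of Mel321-35. Mel321-31 points lie below all MGO.53 points in 7 panels, while Ifit2 stays between 53.3 and 73.7 CPM in all batch 1 libraries.

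The first question was what Mel321-31 did to these genes relative to the isotype control. Of the 10 genes, 6 fell with Mel321-31: Oas2, Oas3, Oasl1, Oasl2, Ifit1 and Mx2 passed an adjusted p of 0.05 in edgeR's quasi-likelihood test, where 2.13% of all genes tested were called lower. The level was 1.84 to 2.74 times lower in these 6. Oas1a, Ifit3 and Mx1 did not pass the adjusted threshold, and Ifit2 was level. The median log2 fold change over the 10 genes was -0.95, and over all genes tested it was -0.0014. In 7 genes every Mel321-31 library lay below every MGO.53 library, against 5.41% of all genes tested. RNA was taken from whole cultures, so fewer expressing cells and less RNA per cell cannot be told apart.

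Among the enzymes that make oligoadenylates, Oas3, the largest synthetase, had 5.55, 7.61, 5.58 and 9.84 CPM in MGO.53 replicates 1 to 4. With Mel321-31 it had 2.56, 2.33, 3.48 and 2.48 CPM. The groups did not overlap, and MGO.53 replicate 4 was the highest library. The log2 fold change was -1.39 ± 0.25 (SE), with adjusted p = 0.00253 in edgeR. Oas2, a synthetase of intermediate size, was low everywhere, with 1.61, 2.37, 1.09 and 3.30 CPM in MGO.53 and 0.948, 0.659, 0.896 and 0.534 CPM with Mel321-31. Every Mel321-31 library was below every control library, and the log2 fold change was -1.45 ± 0.37, with adjusted p = 0.0269 in edgeR. Oas2 rested on 108 counts over the 4 Mel321-31 libraries and 214 over the 4 MGO.53 libraries. Its call was lost with limma-voom and when Mel321-31 replicate 2, 3 or 4 or MGO.53 replicate 2 or 4 was left out, and it held in 12 of 21 alternatives.

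Oas1a, a small synthetase, had 4.47, 5.09, 4.30 and 7.53 CPM in MGO.53 and 4.11, 3.82, 3.24 and 3.42 CPM with Mel321-31. The groups did not overlap, yet the gap between the nearest libraries was small, and the log2 fold change of -0.55 ± 0.17 had an adjusted p of 0.0694 in edgeR. Of the stretches of 50 bases in the Oas1a transcript, 57.6% also occur in Oas1g, so the counts of this pair are uncertain, whichever way reads were divided.

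The OAS-like genes had the smallest adjusted p of the set. Oasl1, known in mice to block translation of the interferon regulatory factor Irf7 and to lack synthetase activity, had 26.7, 32.0, 19.3 and 38.3 CPM in MGO.53. With Mel321-31 it had 13.0, 7.66, 12.3 and 13.5 CPM. No libraries overlapped, and replicate 2 was the lowest. The log2 fold change was -1.32 ± 0.21, with adjusted p = 0.00104 in edgeR. Exons of Oasl1 overlap those of the antisense gene Gm13822, and since no source used here says whether strand was used in counting, its level may include reads of that gene. Oasl2, which in mice keeps synthetase activity, had 10.7, 11.7, 6.43 and 12.8 CPM in MGO.53 and 5.12, 3.02, 5.24 and 5.26 CPM with Mel321-31. The groups stood apart, with MGO.53 replicate 3 nearest to the Mel321-31 range, and the log2 fold change was -1.16 ± 0.20 with adjusted p = 0.00214.

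Of the IFIT genes, Ifit1, which binds viral messenger RNA whose cap lacks a host methyl mark, had 12.4, 20.7, 12.4 and 17.3 CPM in MGO.53. With Mel321-31 it had 9.54, 6.89, 10.3 and 7.19 CPM. The ranges did not overlap, and the log2 fold change was -0.88 ± 0.17 with adjusted p = 0.00434 in edgeR. Ifit3, whose human counterpart stabilises IFIT1, had 7.81, 10.4, 7.56 and 11.5 CPM in MGO.53 and 8.02, 6.51, 6.35 and 6.65 CPM with Mel321-31. Mel321-31 replicate 1 lay inside the control range, and the log2 fold change of -0.43 ± 0.13 had an adjusted p of 0.0664. A share of 51.2% of its 50-base stretches is found in Ifit3b as well, so its count is uncertain in the same way as that of Oas1a.

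Ifit2, the IFIT gene known in mice to restrict viruses in neurons, gave other values. It had 55.3, 57.5, 57.4 and 60.6 CPM in MGO.53 and 53.3, 59.0, 62.3 and 58.3 CPM with Mel321-31. The Mel321-31 range enclosed the control range, and the log2 fold change was 0.01 ± 0.06, with adjusted p = 0.941 in edgeR. With 6030 to 8383 counts per group of 4, Ifit2 had the most counts of the 10 genes, and none of its 50-base stretches was found in another gene.

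For the Mx GTPases, Mx2 had 6.08, 8.38, 6.63 and 9.53 CPM in MGO.53. With Mel321-31 it had 3.66, 2.80, 4.14 and 4.43 CPM. The groups did not overlap, and the log2 fold change was -1.02 ± 0.20 with adjusted p = 0.00505 in edgeR. Mx1, an influenza restriction factor that is defective in C57BL/6 mice, the strain from which B16 came, had 3.61, 3.86, 1.47 and 3.42 CPM in MGO.53 and 2.27, 1.29, 2.13 and 1.92 CPM with Mel321-31. MGO.53 replicate 3 lay within the Mel321-31 range, and the log2 fold change of -0.70 ± 0.25 had an adjusted p of 0.117.

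**Figure D2:**
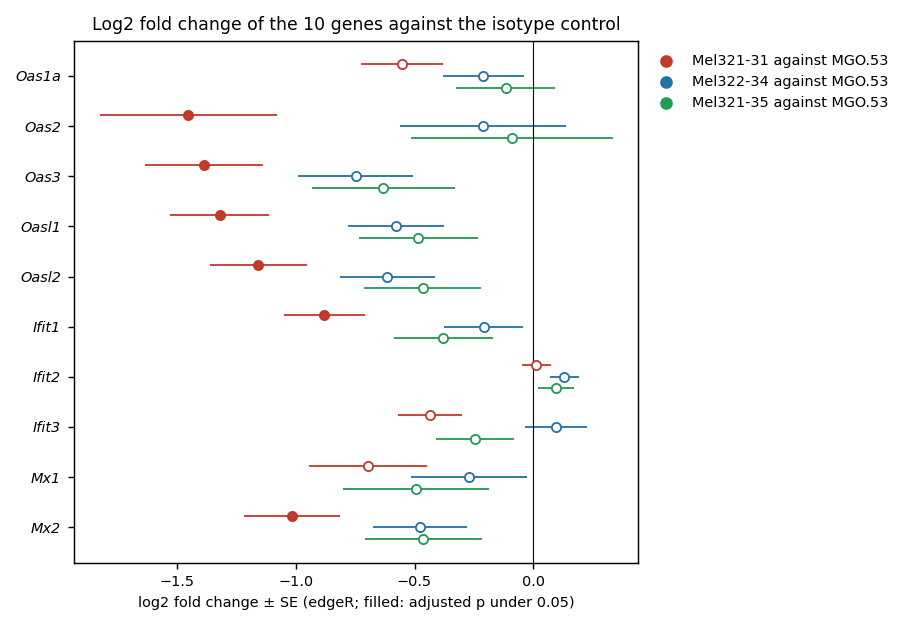
Log2 fold change against MGO.53 (horizontal axis) with its SE for the 10 genes, in red for Mel321-31, blue for Mel322-34 and green for Mel321-35, with filled points at an edgeR adjusted p under 0.05. Filled points are the 6 called genes of Mel321-31, and Ifit2 lies between 0.01 and 0.13 for all 3 antibodies.

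Some markers of epithelial and mesothelial cells moved with these genes. Of 11 such markers, 5 were tested, and Krt8, Krt18 and Msln were called lower with Mel321-31, where 2.13% of all genes tested were called lower. Krt8 was also called lower with Mel322-34, where 6.87% of all genes tested were called. The remaining tested markers, Krt19 and Cdh1, were not called against MGO.53 with any antibody. Krt7, Upk3b, Cldn4 and Esrp1 were too scarce to be tested, and Epcam and Cldn7 had 0 counts in every library. The summed level of the 11 markers was 6.40 to 10.7 CPM with Mel321-31, 8.29 to 21.7 CPM with Mel322-34, 10.7 and 19.9 CPM in the batch 1 libraries of Mel321-35, 15.5 to 26.4 CPM with MGO.53 and 1.23 CPM in the batch 2 library. With the log2 of that sum as a covariate, 0 of the 10 genes and 2 of all 14633 genes were called with Mel321-31, where 517 genes were called without it. The log2 fold changes with the covariate were -0.24 for Oasl1 (adjusted p = 0.698), -0.23 for Oas3 and -0.05 for Mx2. The Mel321-31 and MGO.53 ranges of the sum do not overlap, so the marker level and the antibody cannot be told apart. A fit of all 15 libraries without a batch term also called 0 of the 10 genes, and 91 of 14231 genes tested, with nearly the same fold changes (Oas3 -1.39, adjusted p = 0.0913).

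With Mel322-34, 0 of the 10 genes passed edgeR's test, although 6.87% of all genes tested did. At an unadjusted p under 0.05 there were 5 of the 10, against 22.2% of all genes. Of these, Oas3, Oasl1, Oasl2 and Mx2 were lower and Ifit2 was higher. DESeq2 called 0 and limma-voom called 1, where 9.79% and 6.205% of all genes were called. The count was 4 without Mel322-34 replicate 2, 2 without MGO.53 replicate 3 and 4 with no filter on low counts. The shares of all genes called there were 7.22%, 5.23% and 4.51%. The median log2 fold change was -0.24, and the adjusted p ran from 0.0574 to 0.781. The 3 antibodies were compared with the same MGO.53 libraries.

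Mel322-34 replicate 2 stood out among its group. For Oas3, the 4 replicates had 3.29, 7.61, 2.76 and 3.41 CPM, and for Oasl1 they had 17.6, 32.1, 12.9 and 15.7 CPM. In both genes replicate 2 was inside the MGO.53 range and the other 3 were below it. The log2 fold change was -0.75 ± 0.24 for Oas3 (adjusted p = 0.0578), -0.58 ± 0.20 for Oasl1 (adjusted p = 0.0803) and -0.61 ± 0.20 for Oasl2 (adjusted p = 0.0574) in edgeR. Ifit1 had 15.1, 18.5, 9.26 and 11.3 CPM, with a log2 fold change of -0.21 ± 0.17. Ifit3 was at 10.8, 12.2, 8.82 and 8.08 CPM and Ifit2 at 57.1, 73.7, 66.0 and 57.7 CPM, and both had log2 fold changes above 0, at 0.10 ± 0.13 and 0.13 ± 0.06, that did not pass the test.

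With Mel321-35, edgeR called 0 of the 10 genes, where 0.041% of all genes tested were called. DESeq2 and limma-voom also called 0, where 0.683% and 0.0273% of all genes were called. In edgeR 1 gene, Oas3, had an unadjusted p under 0.05, against 10.5% of all genes. The group had only 2 libraries in the test. Replicates 3 and 4 differed in most genes, with Oasl1 at 16.1 and 25.9 CPM, Oas2 at 1.19 and 2.79 CPM and Mx2 at 4.26 and 6.95 CPM. Replicate 4 was the higher of the pair in those 3 genes, and Ifit2, at 61.5 and 62.4 CPM, was close between them. The log2 fold changes ran from -0.63 ± 0.30 for Oas3 to 0.10 ± 0.08 for Ifit2, with a median of -0.42.

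Direct tests between antibodies called 0 of the 10 genes in edgeR, DESeq2 and limma-voom. With no filter on low counts, edgeR called 7 for Mel321-31 against Mel322-34 and 5 for Mel321-31 against Mel321-35. In that setting 0.4128% and 0.5404% of all genes were called. The shares that follow are those of the filtered fit. For Mel321-31 against Mel322-34, 0.0205% of all genes tested were called. At an unadjusted p under 0.05 there were 7 of the 10, against 6.96% of all genes. All 10 log2 fold changes were below 0, from -1.24 ± 0.37 for Oas2 to -0.12 ± 0.06 for Ifit2, and the smallest adjusted p was 0.381. For Mel321-31 against Mel321-35, 0.103% of all genes were called, and at an unadjusted p under 0.05 there were 7 of the 10, against 8.06% of all genes. The log2 fold changes ran from -1.36 ± 0.44 for Oas2 to -0.08 ± 0.07 for Ifit2, and the smallest adjusted p was 0.312. For Mel322-34 against Mel321-35, 0.26% of all genes were called, and the 1 gene with an unadjusted p under 0.05, as 9.61% of all genes had, was Ifit3 (log2 fold change 0.34 ± 0.16, adjusted p = 0.507).

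Libraries within a group also differed in the level of the whole set. Leaving out Ifit2, the 9 other genes summed to 79.0, 102.1, 64.8 and 113.6 CPM in MGO.53 and to 49.3, 35.0, 48.0 and 45.4 CPM with Mel321-31. Mel322-34 had 67.8, 101.6, 47.4 and 58.0 CPM and Mel321-35 had 56.6 and 79.4 CPM. MGO.53 and Mel321-31 did not overlap, while Mel322-34 covered values from the Mel321-31 range up to the control range. Each gene's log2 CPM had a Pearson correlation of 0.777 to 0.972 with the mean of the other 9 over the 14 batch 1 libraries, except Ifit2 with 0.232. These correlations describe libraries that share the antibody groups and carry no test.

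**Figure D3:**
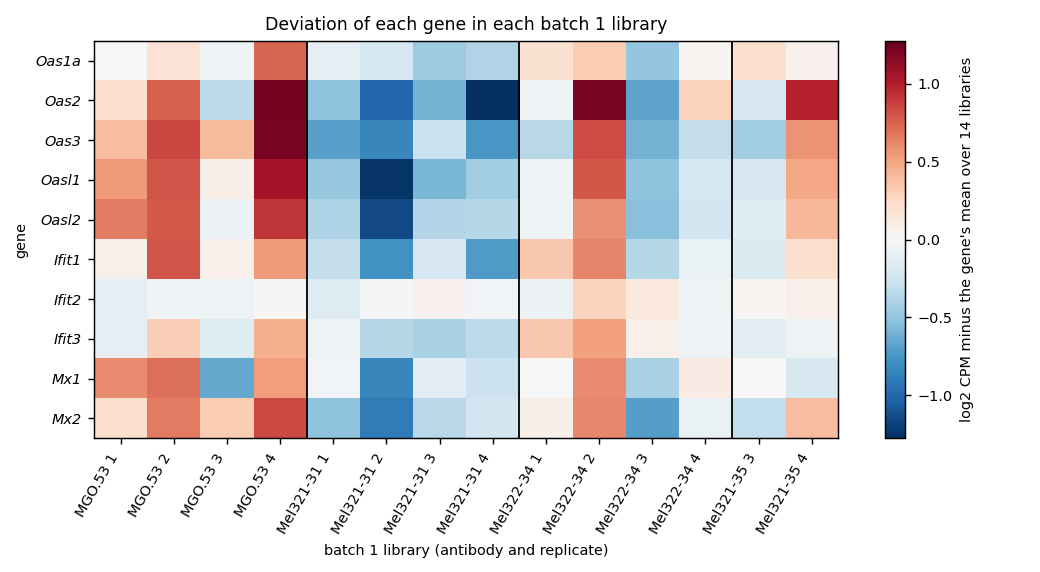
Log2 CPM of each gene minus its mean over the 14 batch 1 libraries (colour, red above and blue below), with libraries in columns by antibody and genes in rows. MGO.53 replicate 4 and Mel322-34 replicate 2 are red and Mel321-31 replicate 2 is blue in most genes, and the Ifit2 row is pale throughout.

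Outside the set of 10 genes, the 8 whose log2 CPM followed the mean of the 10 genes most closely over those 14 libraries had Pearson correlations from 0.971 to 0.987. They were Isg15, a ubiquitin-like protein induced by interferon, Ly6e, a membrane protein that limits virus entry, Spp1, which encodes osteopontin, Ppp1r15a, a regulatory subunit of the phosphatase that restores translation after stress, Cmpk2, a mitochondrial nucleotide kinase, H2-K1, a class I histocompatibility heavy chain, Rsad2, which encodes viperin, and Parp14, a mono-ADP-ribosyltransferase. Their log2 fold changes for Mel321-31 against MGO.53 ran from -1.21 for Ly6e to -0.59 for Cmpk2, which the choice by likeness to a mean that is lower with Mel321-31 largely fixes. Spp1, Ppp1r15a and H2-K1 are in none of the interferon lists used here.

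Close relatives of these genes were mostly low or at 0. Of 10 further OAS and IFIT genes, 6 were tested and 0 were called for any antibody against MGO.53 in edgeR, with 3 at an unadjusted p under 0.05 for Mel321-31, against 17.8% of all genes. Oas1g had 2.06, 3.08, 1.51 and 2.34 CPM in MGO.53 and 1.04, 1.13, 0.896 and 1.39 CPM with Mel321-31. The ranges did not overlap, and the log2 fold change of -0.997 ± 0.290 had an adjusted p of 0.0512. Ifit3b (-0.60 ± 0.22, adjusted p = 0.124) and Oas1b (-0.80 ± 0.32, adjusted p = 0.179), which is truncated in most laboratory mouse strains, did not pass either. Oas1c, Ifit1bl1 and Ifit1bl2 stayed under 1.5 CPM in every library. Oas1d, Oas1e and Oas1f had at most 4 counts in any group, and Oas1h had 0 in every library.

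Around the products of the synthetases, Pde12, which degrades oligoadenylates, and Abce1, a ribosome recycling factor, were called by edgeR in 0 comparisons. Of all genes tested, 0.0205% to 6.87% were called, depending on the comparison. With Mel321-31 against MGO.53 the log2 fold change was 0.08 ± 0.05 for Pde12 (adjusted p = 0.473) and 0.09 ± 0.04 for Abce1 (adjusted p = 0.143). Abce1 had an unadjusted p under 0.05 with Mel321-31 and with Mel322-34, against 17.8% and 22.2% of all genes.

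Upstream, transcripts of interferon itself were scarce. Ifnb1, interferon beta, had 1.13, 1.95, 1.28 and 3.69 CPM in MGO.53 and 0.569, 0.357, 0.738 and 0.962 CPM with Mel321-31. The groups did not overlap, and the log2 fold change was -1.60 ± 0.36 with adjusted p = 0.0110 in edgeR. These levels rest on 205 counts over the 4 MGO.53 libraries and 95 over the 4 Mel321-31 libraries. Of 9 interferon genes listed, 2 passed the filter and both were called lower with Mel321-31, against 2.13% of all genes tested. The other was Ifna4, with 3 to 6 counts per Mel321-31 library and 6 to 22 per MGO.53 library. Its log2 fold change was -2.38 ± 0.68, with adjusted p = 0.0479 in edgeR. Reads of near-identical interferon alpha genes cannot be divided with certainty. Ifna4 stayed at or below 0.158 CPM in every Mel321-31 library, so it passed the filter through groups where it was higher. The 2 calls are therefore not comparable with the share of all genes. With Mel322-34 and Mel321-35, edgeR called 0 of the 2, with 0 and 1 at an unadjusted p under 0.05, against 22.2% and 10.5% of all genes.

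Of 16 interferon receptor and ISGF3 signalling genes, 2 fell with Mel321-31, where 2.13% of all genes tested were called lower. Usp18, which damps receptor signalling, fell by 1.18 ± 0.18 on the log2 scale (adjusted p = 0.000778), and Irf7, the main driver of interferon alpha transcription, fell by 1.43 ± 0.23 (adjusted p = 0.00104). Irf7 had 8.98, 12.7, 6.71 and 15.8 CPM in MGO.53 and 4.01, 3.05, 4.03 and 5.24 CPM with Mel321-31, with no overlap. Irf1, a transcription factor of the same family, had a log2 fold change of -0.40 ± 0.13 that did not pass (adjusted p = 0.0860). Usp18 was also lower with Mel322-34 (-0.61 ± 0.17, adjusted p = 0.0314), although the libraries of the 2 groups overlapped. It was the only 1 of the 16 called in that comparison, where 6.87% of all genes tested were called. With Mel321-35 edgeR called 0 of 16, with 2 at an unadjusted p under 0.05 (Ifngr2 higher and Irf7 lower), against 10.5% of all genes.

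Among 11 RNA and DNA sensing genes, the helicases Ifih1 (-0.57 ± 0.11, adjusted p = 0.00507), Dhx58 (-0.55 ± 0.15, adjusted p = 0.0366) and Ddx58 (-0.42 ± 0.11, adjusted p = 0.0271), which detect or regulate detection of viral RNA, fell with Mel321-31 on the log2 scale. The other 8 did not pass the test, so 3 of the 11 were called lower, against 2.13% of all genes tested. Of 28 other interferon-induced effectors, 13 fell and 0 rose with Mel321-31, with a median log2 fold change of -0.58. Over all genes tested, 2.13% were called lower and the median was -0.0014. Isg15 fell by 1.07 ± 0.16, Ly6e by 1.21 ± 0.21 and Ifi44, a cytoplasmic antiviral protein, by 1.41 ± 0.22 on the log2 scale, with adjusted p = 0.000778, 0.00203 and 0.00104 in edgeR. For Mel322-34 edgeR called 0 of the 11 and 0 of the 28, with 0 and 9 at an unadjusted p under 0.05, where 22.2% of all genes had one. For Mel321-35 it called 0 of each, with 2 and 2, where 10.5% of all genes had one.

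**Figure D4:**
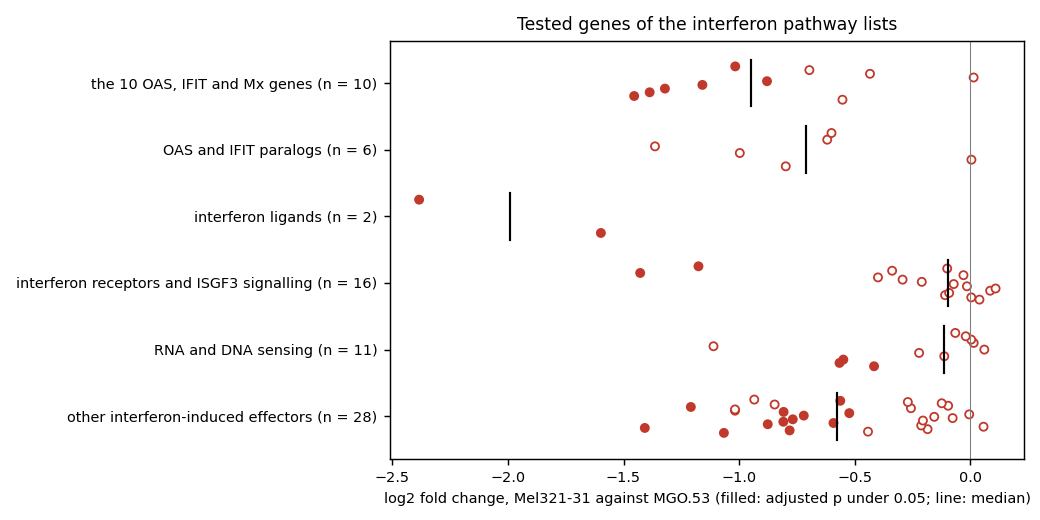
Log2 fold change of Mel321-31 against MGO.53 (horizontal axis) for the tested genes of each list (vertical axis), the 10 genes in the top row, with filled points at an edgeR adjusted p under 0.05 and a line at the median. All filled points lie below 0, and the row of paralogs has none.

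The batch 2 library, Mel321-35 replicate 1, held less of 9 of the 10 genes than any batch 1 library, where 17.04% of 11702 genes with a batch 1 mean of at least 1 CPM did so. It had 7 of the 10 under 50% of the batch 1 mean, against 1.95% of those genes, and the median gene stood at 98.4%. Batch and library are the same here, so they cannot be told apart, and with a single library there is no test.

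Oasl1 had 3 counts there, 0.115 CPM, against 16.1 and 25.9 CPM in the batch 1 libraries of the same antibody. The mean over batch 1, 20.2 CPM, was 175.9 times as high (exact Poisson 95% interval 60.2 to 852.8, counting error only). Oas3 also had 3 counts, with a batch 1 mean 40.9 times as high (interval 14 to 198.5). Oas2 had 0 counts, so no ratio or interval was computed for it. Its batch 1 mean was 14.1 times the level of 3 counts in that library, which was taken as a floor. Oasl2 held 10 counts, 5.21% of its batch 1 mean, and Mx2 17 counts, 11.6%. These 5 genes were the lowest of the 10 relative to batch 1.

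The remaining genes were reduced by less. Ifit1 stood at 37.4% of its batch 1 mean, Mx1 at 49.5%, Oas1a at 61.6% and Ifit3 at 62.8%, and all 4 were below every batch 1 library. Ifit2 had 1434 counts, 54.9 CPM, which was 91.3% of its batch 1 mean and inside the batch 1 range. In the batch 2 library Ifnb1 had 0 counts and Irf7 had 11. Ifna4 had 0 there and also in the batch 1 library Mel321-35 replicate 3.

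**Figure D5:**
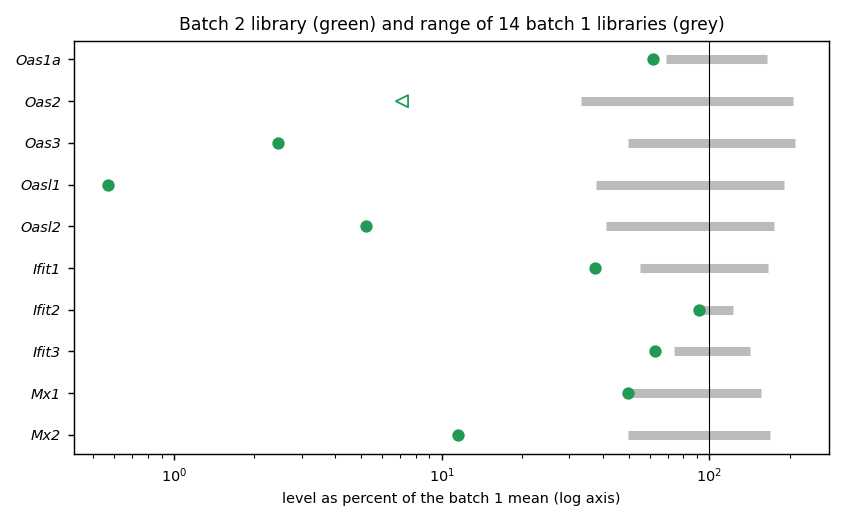
Level of each gene in the batch 2 library as a percent of its mean over the 14 batch 1 libraries (log axis, green), beside the range of those 14 libraries (grey bars), with an open triangle at the floor of 3 counts for Oas2, which had 0 counts. Among genes with counts, Oasl1 is lowest at 0.569%, and Ifit2, at 91.3%, is the only gene inside its grey bar.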

How the data were processed

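Polyadenylated RNA of 16 labelled samples was sequenced from directional libraries, per the labels' protocols. Of these, 15 had values, and replicate 2 of Mel321-35 was not analysed here. The submitters' processing notes name STAR 2.7.10a, HTSeq 2.01 and DESeq2. Build, annotation and strand setting: not given in the sources used here. Per gene, the authors deposited raw read counts. The authors also deposited, for 19365 genes, a normalised signal that equals the count over 1 size factor per library and was not used in the tests. Of 55414 identifiers, 6250 were empty. The number of further sample columns was 0, that of lines without a gene was 0, and 0 pairs of libraries were identical.

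The quasi-likelihood F-test of edgeR 4.0.16 (R 4.3.3) was run on the raw counts, with TMM factors and the filter by expression, in a single model of the 14 batch 1 libraries. It had 10 residual degrees of freedom and a biological coefficient of variation of 5.46%. Calls needed an adjusted p (Benjamini-Hochberg, all 14633 genes) under 0.05. Values after ± are standard errors for log2 fold changes and SDs for levels. Levels in CPM use the library total alone. Shared 50-base stretches were counted between GENCODE M21 transcripts. Correlations used log2 CPM with a prior count of 2.

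The members and lists were chosen with earlier results of these data known. The genes named were the 10 members, their paralogs, the 3 tested genes (fewer where not reported here) with the smallest p of each pathway list for Mel321-31 against MGO.53, and the 8 genes most like the members' mean with a mean log2 CPM of 1 or more. Markers were named as examples of their lists or where they were called or at 0. Alternatives were DESeq2 1.42.0, limma-voom (limma 3.58.1), 3 scalings, 2 filters, a threshold of 0.01, 2-group fits, the 15 libraries fitted with batch as a term or ignored, replicate blocks, a marker covariate and each library left out. The test was checked before use on simulated counts with the same spread for all genes, and with changes only in genes above a set mean count. The simulation did not use the spread of the 10 genes, so it does not vouch for the test on them.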

Additional observations from a re-analysis of the deposited data

Results flagged for a closer look

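In 30 groups of 4 libraries (the 10 genes in 3 antibody groups), the gap between an extreme library and its nearest neighbour was set against the group's range, and chance marks about 1 in 20 such groups. A high value stood apart for Oas3 in Mel322-34 replicate 2, at 7.61 CPM, where the gap took 0.867 of the range. A low value stood apart for Oasl2 in Mel321-31 replicate 2, at 3.02 CPM, where the gap took 0.935 of the range. These 2 of 30 groups are the ones past Dixon's critical value for 4 libraries.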

How the results depend on the processing

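For Mel321-31 against MGO.53, edgeR called 6 of the 10 genes, and the count was 5 to 9 with 1 library left out (9 without MGO.53 replicate 3), 8 with DESeq2, 5 with limma-voom and 9 with no filter on low counts. Of all genes, 3.53% were called in the main fit and 0.932% to 8.49% with 1 library left out (3.275% without MGO.53 replicate 3). The share was 5.15% with DESeq2, 3.14% with limma-voom and 2.86% with no filter. The count among the 10 genes was 0 with all 15 libraries and no batch term and 0 with the epithelial marker level as a covariate. Of all genes, 0.639% and 0.0137% were called there, and the cause was not tested. Oas3, Oasl1, Oasl2, Ifit1 and Mx2 were called under 19 of 21 alternatives, those 2 being the exceptions, and Oas2 under 12. For Mel322-34 against MGO.53, with 0 called, the count was 1 with limma-voom, 4 with no filter on low counts, 2 in a fit of the 2 groups alone, 3 with a replicate block and 0 to 4 with 1 library left out. In the same order, the shares of all genes called were 6.205%, 4.51%, 8.33%, 8.26% and 2.24% to 7.22%. With no filter on low counts the count was 1 for Mel321-35 against MGO.53, 7 for Mel321-31 against Mel322-34 and 5 for Mel321-31 against Mel321-35, each with 0 called otherwise. The shares of all genes called there were 0.3565%, 0.4128% and 0.5404%. For Mel322-34 against Mel321-35 the count stayed 0 in every alternative run. Same-numbered libraries had correlations of their deviations from -0.0923 to 0.0899 over 18 pairs, and 5 of 14 libraries correlated best with their own number, so the numbers were not taken as pairs. With a replicate block the counts were 6 for Mel321-31, 3 for Mel322-34 and 0 for Mel321-35, each against MGO.53. Of all genes, 4.35%, 8.26% and 0.0342% were called with the block. All genes called for Mel322-34 came to 1209 in place of 1005. That 1005 comprised 589 higher and 416 lower, and 483 and 555 with upper quartile scaling.

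Over 51 fold changes and 1029 alternative values, 947 kept direction and side of the threshold, 18 lost the call, 41 gained it and 23 changed sign, 0 of these past the threshold. Individual values in Mel322-34 against Mel321-35 other than Ifit3 were not followed. With the covariate the log2 fold change turned to 0.12 for Oas2 and 0.028 for Mx1 with Mel321-31, to 0.47 for Oas2, 0.16 for Ifit1 and 0.079 for Mx1 with Mel322-34, and to 0.049 for Oas1a and 0.45 for Oas2 with Mel321-35, each against MGO.53. Between Mel321-31 and Mel322-34 it turned to 0.0068 for Oas3, and between Mel321-31 and Mel321-35 to 0.0056 for Oas3, 0.035 for Ifit3, 0.20 for Mx1 and 0.063 for Mx2, with 0.012 for Mx1 in all 15 libraries without a batch term. The replicate block turned Oas2 to 0.053 for Mel321-35 against MGO.53. With 1 library left out, the log2 fold change of Ifit2 for Mel321-31 against MGO.53 ran from -0.018 (without Mel321-31 replicate 3) to 0.051 and was -0.0082 without MGO.53 replicate 1. For Mel322-34 against MGO.53 it ran from -0.32 to 0.0041 for Oas1a (without MGO.53 replicate 4), from -0.68 to 0.11 for Oas2 (without the same library, and 0.023 without Mel322-34 replicate 3) and from -0.013 (without Mel322-34 replicate 2) to 0.22 for Ifit3. For Mel321-35 against MGO.53 it ran from -0.21 to 0.099 for Oas1a (without MGO.53 replicate 4) and from -0.81 to 0.42 for Oas2 (without Mel321-35 replicate 3, and 0.23 without MGO.53 replicate 4). The cause of these was not tested. Low counts limit Oas2, the scarce paralogs and the interferon transcripts, and n = 2 limits every result on Mel321-35.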
